A study of Rattus norvegicus with 6 samples.

Results

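The 2 rat insulin genes, the amylin gene and the enzymes that cut and finish prohormones were followed in β-cells depleted of the nuclear receptor COUP-TFII. The 8 gene symbols were Ins1, Ins2, Iapp, Pcsk1, Pcsk2, Cpe, Pam and Furin, and every probe set annotated to 1 of them alone was taken. This gave 9 of the 31042 probe sets that are not controls, for 7 of the 8 genes. Pcsk1, for prohormone convertase 1/3, was not analysed here because the annotation used gives no probe set to it alone. The cells were the 832/13 clone of the rat insulinoma line INS-1, grown at 11 mM glucose. RNA was taken 48 h after electroporation with COUP-TFII siRNA (COUP-TFII depleted cells) or with scrambled siRNA (control cells), on 3 Affymetrix arrays each, labelled as biological replicates 1, 2 and 3 in both groups. The values describe 1 clonal tumour line and transient depletion, not islets, and the passage of each culture (between 7 and 25) is not given in the sources used here.

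β-cells make preproinsulin and preproIAPP as single chains that lose a signal peptide in the endoplasmic reticulum. In the Golgi and the secretory granules, prohormone convertases cut the prohormones after pairs of basic residues, carboxypeptidase E trims the basic residues left at the new ends, and peptidylglycine alpha-amidating monooxygenase amidates the end of amylin. Rats and mice carry a pair of insulin genes, where most mammals have a single one. The COUP-TFII gene, Nr2f2, has been linked to insulin production, and whether RNAs for the hormones and their processing enzymes differ after its depletion is the question these arrays can address.

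The sequences before both insulin genes and Iapp are shown because they are the DNA next to the starts of the hormone genes, and because the pair of insulin genes was read by separate probe sets. Each is the 250 bases before the gene's start in RefSeq, on GRCr8, 5′ to 3′ in the gene's direction. Capitals mark GCCATCTG (an E box of insulin promoters), TAAT (the core of the A boxes) and their reverse complements.
Ins1, chr1:261185869-261186118, + strand: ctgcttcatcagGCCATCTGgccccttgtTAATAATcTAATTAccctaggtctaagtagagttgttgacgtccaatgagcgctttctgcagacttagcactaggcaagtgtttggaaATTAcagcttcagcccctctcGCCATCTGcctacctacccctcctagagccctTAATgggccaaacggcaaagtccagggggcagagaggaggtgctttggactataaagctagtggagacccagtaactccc
Ins2, chr1:207273806-207274055, - strand: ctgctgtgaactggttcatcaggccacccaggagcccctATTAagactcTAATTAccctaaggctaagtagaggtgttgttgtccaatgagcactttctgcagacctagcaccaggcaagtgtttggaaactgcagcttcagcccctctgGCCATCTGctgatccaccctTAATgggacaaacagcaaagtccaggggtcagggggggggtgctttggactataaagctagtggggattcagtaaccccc
Iapp, chr4:176967847-176968096, + strand: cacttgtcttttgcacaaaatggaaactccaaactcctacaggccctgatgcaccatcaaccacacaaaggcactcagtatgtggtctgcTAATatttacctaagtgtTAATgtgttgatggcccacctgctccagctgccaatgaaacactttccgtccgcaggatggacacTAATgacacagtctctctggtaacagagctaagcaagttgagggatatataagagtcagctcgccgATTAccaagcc
The Ins1 and Ins2 windows were identical in 209 of 237 aligned bases, with 26 gap columns. GCCATCTG stood in the Ins1 window at 238 and 112 bases before the start, in the Ins2 window at 100 bases, and not in the Iapp window. It occurs on either strand in 0.998% of 33469 such windows. TAAT was found 6 times in the Ins1 window and 4 times each in those of Ins2 and Iapp, with overlapping matches on both strands counted (as in TAATTA), and it occurs in 57.0% of windows. AGGTCA, the half-site bound by COUP-TFII and other nuclear receptors, occurs on either strand in 14.1% of windows and was matched in none of the 6 member windows searched (the other 3 were those of Pcsk2, Cpe and Pam). These are matches of letters and say nothing of binding.

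A probe set reads 1 transcript with several short probes, and its signal is a linear MAS5 intensity. The siRNA target, Nr2f2 1389554_at, read 47.0, 27.7 and 23.8 in COUP-TFII depleted cells (replicates 1 to 3), against 182, 235 and 179 in control cells. The log2 fold change (log2FC, COUP-TFII siRNA relative to scrambled siRNA) was -2.65, with a standard error (SE) of 0.30 (limma adjusted p = 0.404 unpaired, and 0.0185 when the replicate number entered as a block). Nr2f2 1370063_at read 19.7, 22.2 and 21.3 in COUP-TFII depleted cells, against 79.8, 65.7 and 61.8 in control cells, with a log2FC of -1.71 (SE 0.32, limma adjusted p = 1 unpaired and 0.316 under the block). The third, Nr2f2 1395863_at, was dim in both groups, with a log2FC of -0.37 (SE 0.56). Of the 11 β-cell marker genes in a list drawn up for this purpose, 7 had a named probe set, and none of these was dim. Dim means a mean at or below 20.7, the highest signal of 27 Bacillus control probe sets, in both groups. Among other cell types, 1 of 4 markers of δ-, PP and ε-cells (Ppy), 1 of 9 measured acinar markers (Ctrb1), 1 of 6 fibroblast markers (Pdgfra), 1 of 3 endothelial markers (Kdr) and 1 of 3 leukocyte markers (Cd68) were not dim, and the summed signals of these lists overlapped between the groups. Of 4 measured duct markers 2 were not dim, Krt7 and Muc1. The summed signal of that list was from 405 to 472 in COUP-TFII depleted cells, against 493 to 564 in control cells, and most of it came from Krt7, which read 372, 396 and 431 in COUP-TFII depleted cells, against 442, 532 and 432 in control cells. Of 4 measured α-cell markers 2 were not dim, Gcg and Gc, with summed signals of 7186 to 13766 in COUP-TFII depleted cells and 6716 to 11958 in control cells. The part of these RNAs in the values below was not tested. Replicate 2 stood apart in both groups: the 4 bioC spike-in probe sets, for bacterial RNA added to every sample, read from 84.8 to 144 on its arrays and from 411 to 625 on the other 4. The brighter cre spike-ins (3′ and 5′) also differed within replicate 2. They read 8191 and 5569 in control cells and 10592 and 8135 in COUP-TFII depleted cells. On the other 4 arrays they read from 11400 to 12342 and from 8498 to 9456. What this adds to the values below was not tested. The ratio of the 3′ to the 5′ actin control, a measure of RNA integrity, was from 2.64 to 3.39 in COUP-TFII depleted cells and from 2.88 to 3.003 in control cells. Fewer cells of a kind and less RNA per cell cannot be told apart in such bulk samples.

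None of the 7 measured hormone and processing enzyme genes passed the test. The unpaired fit did not call the siRNA target either (Nr2f2 1389554_at, log2FC -2.65, adjusted p = 0.404 from limma). The counts below therefore do not show that these genes were unchanged. By limma, two-sided, with Benjamini-Hochberg adjustment over all 31042 probe sets, 0 of the 9 probe sets had an adjusted p up to 0.05, and 0 of 9 had an unadjusted p up to 0.05. The background for these counts is 0% of all probe sets called after adjustment and 2.31% at the unadjusted p (0.973% higher and 1.34% lower). With the replicate block 0 of 9 were called, against 5 probe sets or 0.0161% of all, and 0 of 9 had an unadjusted p up to 0.05, against 6.23% of all. The groups overlapped for all 9 probe sets, while 6.69% of all probe sets had groups that did not (3.24% higher and 3.45% lower). The lowest p of any member by the methods' t-test, unadjusted, was 0.190 in this design of 3 arrays against 3, for which an exact permutation test cannot go below 0.1.

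**Figure D1:**
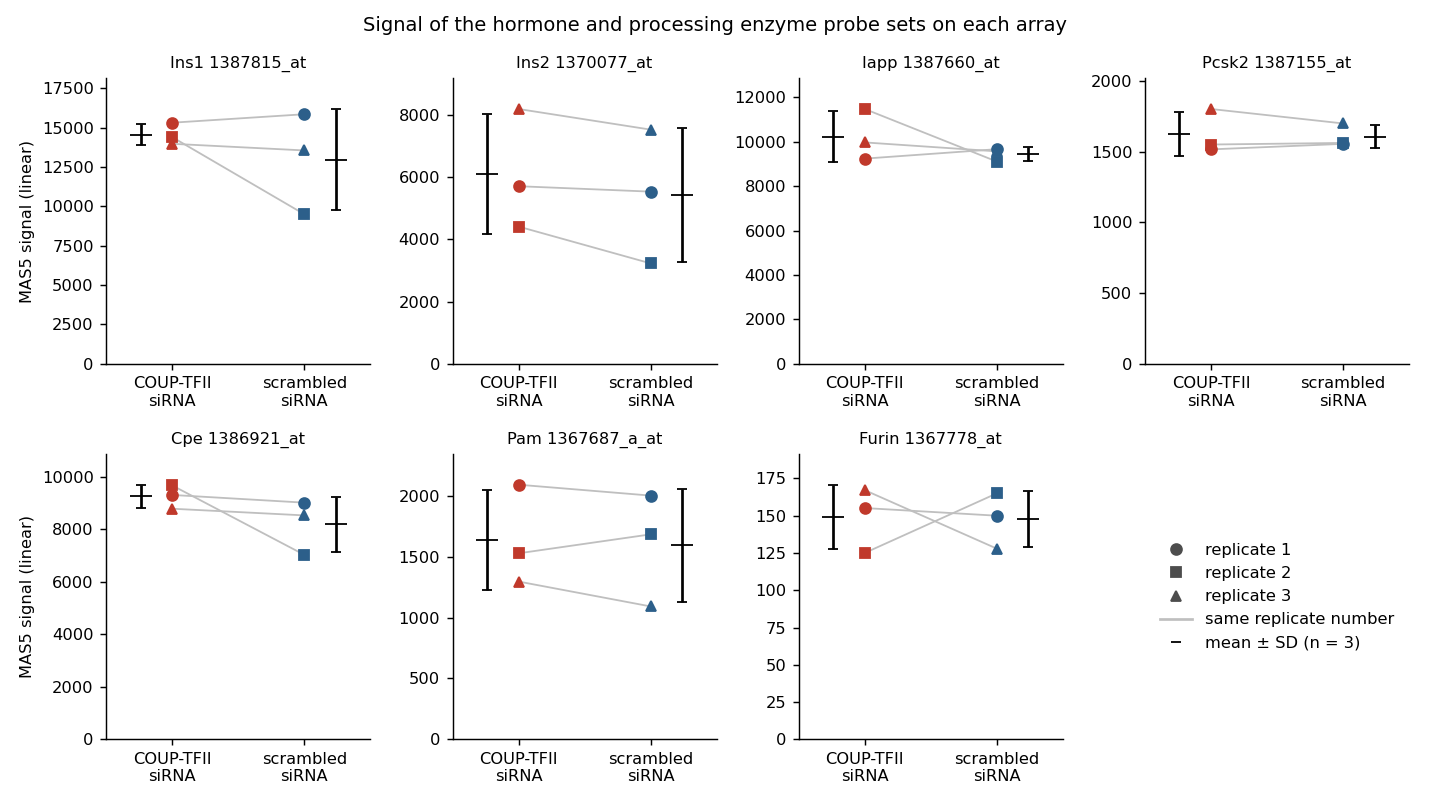
Signal per array (MAS5 intensity, linear axes from 0) of the 7 probe sets with at least the median signal, in COUP-TFII depleted cells (red, left) and control cells (blue, right). Symbols give the replicate number, grey lines join arrays with the same number, and bars are mean ± SD (n = 3). The groups overlap in every panel, and control replicate 2 is the lowest array for Ins1, Ins2, Iapp and Cpe.

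Ins1 and Ins2 encode the precursors of the pair of rat insulins. Ins1 1387815_at read 15306, 14386 and 13966 in COUP-TFII depleted cells, against 15843, 9490 and 13544 in control cells. Control replicate 2 lay far below the other 5 arrays, which lay close together. The means were 14552 ± 685 in COUP-TFII depleted cells and 12959 ± 3216 in control cells (SD, n = 3 each), a log2FC of 0.20 (SE 0.23, adjusted p = 1 from limma). Without control replicate 2 the log2FC was -0.011. Ins1 lay near the top of the scale, at 87.2% to 95.1% of the highest signal on each array, and the table gives no flags for saturated probes.
Ins2 1370077_at read 5713, 4415 and 8198 in COUP-TFII depleted cells, against 5539, 3230 and 7535 in control cells. In both groups replicate 3 was the highest and replicate 2 the lowest, and in each same-numbered pair the COUP-TFII depleted array was the higher one. The means were 6109 ± 1923 in COUP-TFII depleted cells and 5434 ± 2154 in control cells (SD, n = 3 each), with a log2FC of 0.21 (SE 0.33, adjusted p = 1 from limma). The ratio within pairs was 1.03, 1.37 and 1.09 for replicates 1, 2 and 3. With the replicate block the SE was 0.12 and the 95% interval of the fold change ran from 0.953 to 1.40. In the unpaired fit the log2FC was -0.13 without control replicate 2 and -0.030 without COUP-TFII depleted replicate 3, settings that leave the lowest or the highest replicate number in 1 group only. Without both replicate 2 arrays it was 0.083. Ins1 and Ins2 RNAs are similar in sequence, so each probe set may also bind RNA of the other gene, which was not tested, and signals of different probe sets cannot be set against each other.
Iapp encodes amylin, the peptide that β-cells co-secrete with insulin. Iapp 1387660_at read 9238, 11474 and 9968 in COUP-TFII depleted cells, against 9663, 9107 and 9566 in control cells. COUP-TFII depleted replicate 2 was the highest array, and the other 5 lay close together in both groups. The means were 10227 ± 1140 in COUP-TFII depleted cells and 9445 ± 297 in control cells (SD, n = 3 each), a log2FC of 0.11 (SE 0.17, adjusted p = 1 from limma). This became -0.082 after quantile normalization and 0.023 without COUP-TFII depleted replicate 2.

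Furin is the convertase of the Golgi that cuts precursors of many cells, and Pcsk2 encodes prohormone convertase 2, a granule convertase of endocrine cells and neurons. Furin 1367778_at read 155, 125 and 167 in COUP-TFII depleted cells, against 150, 165 and 128 in control cells. Its pairs ran in opposite directions, with ratios of 1.03, 0.758 and 1.31, and its log2FC was 0.011 (SE 0.19).
Pcsk2 1387155_at read 1516, 1551 and 1802 in COUP-TFII depleted cells, against 1555, 1562 and 1700 in control cells. Replicate 3 was the highest in both groups, and the ratios within pairs were 0.975, 0.993 and 1.06. The means were 1623 ± 156 in COUP-TFII depleted cells and 1606 ± 81.6 in control cells (SD, n = 3 each), a log2FC of 0.012 (SE 0.13). Of all 9 probe sets this was the one measured most tightly: the 95% interval of the fold change was 0.817 to 1.25, and 0.883 to 1.15 with the replicate block.

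Cpe encodes carboxypeptidase E, which removes the basic residues that the convertases leave. Cpe 1386921_at read 9307, 9667 and 8782 in COUP-TFII depleted cells, against 9013, 7027 and 8528 in control cells. Control replicate 2 was again the lowest array, and in all 3 same-numbered pairs the COUP-TFII depleted array was the higher one. The means were 9252 ± 445 in COUP-TFII depleted cells and 8189 ± 1036 in control cells (SD, n = 3 each), a log2FC of 0.18 (SE 0.17, adjusted p = 1 from limma). After quantile normalization it was 0.0063, and without control replicate 2 it was 0.077.
Pam, the amidating enzyme, was read by 3 probe sets. The bright one, 1367687_a_at, read 2089, 1527 and 1295 in COUP-TFII depleted cells, against 2000, 1682 and 1091 in control cells. Replicate 1 was the highest and replicate 3 the lowest in both groups, and the ratios within pairs were 1.04, 0.908 and 1.19. Its log2FC was 0.057 (SE 0.25, and 0.098 with the replicate block), and in the unpaired fit it was -0.13 without COUP-TFII depleted replicate 1 and -0.19 without control replicate 3, which likewise leave a replicate number in 1 group only. The other Pam probe sets lay close to the background scale of 20.7 or under it. Pam 1370502_at read 23.4, 17.6 and 17.6 in COUP-TFII depleted cells, against 41.0, 13.7 and 17.2 in control cells, and Pam 1370689_at, dim in both groups, read from 0.781 to 9.30 on the 6 arrays. Their log2FC values of -0.14 (SE 0.55) and -0.23 (SE 0.99) were negative, opposite in sign to that of the bright Pam probe set.

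**Figure D2:**
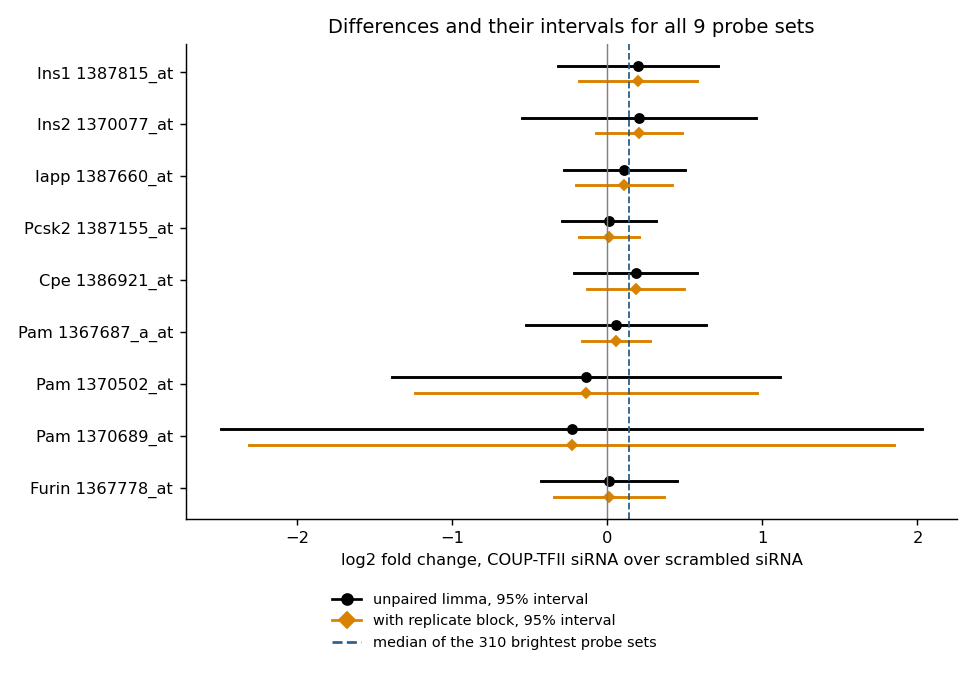
log2FC with 95% intervals from limma for all 9 probe sets, unpaired (black circles) and with the replicate number as a block (orange diamonds). All intervals include 0, the dashed line is the median of the 310 brightest probe sets, 0.14, and the other 2 Pam probe sets have the widest intervals.

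Across the 9 probe sets the median log2FC was 0.057, with 7 higher and 2 lower by mean, and across the 7 at or above the median signal it was 0.11, with all 7 higher by mean as deposited and 5 of 7 after quantile normalization, where Iapp and Pcsk2 were lower. Over all probe sets the median was -0.0031, with 49.6% higher and 50.4% lower by mean. Ins1, Ins2, Iapp and Cpe are among the 310 brightest probe sets (1% of all, mean signal at least 3350), and these as a whole read higher in COUP-TFII depleted cells: their median log2FC was 0.14, and 92.9% were higher. That shift lay mainly in replicate 2. The median difference of the 310 brightest was 0.037, 0.32 and 0.029 on the log2 scale within replicates 1, 2 and 3. The same pairs differed by -0.050, 0.60 and 0.044 for Ins1, by 0.045, 0.45 and 0.12 for Ins2, by -0.065, 0.33 and 0.059 for Iapp and by 0.046, 0.46 and 0.042 for Cpe. Without both replicate 2 arrays, a setting added after the values were seen, the log2FC values were -0.0027 for Ins1, 0.083 for Ins2, -0.0027 for Iapp, 0.024 for Pcsk2, 0.044 for Cpe, 0.16 for Pam 1367687_a_at and 0.22 for Furin, and 0 of 9 probe sets were called. Only Ins2 and Cpe were higher in all 3 pairs, 2 of 9 probe sets, and none was lower in all 3, while 13.4% of all probe sets were higher and 14.0% lower in all 3 pairs.

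**Figure D3:**
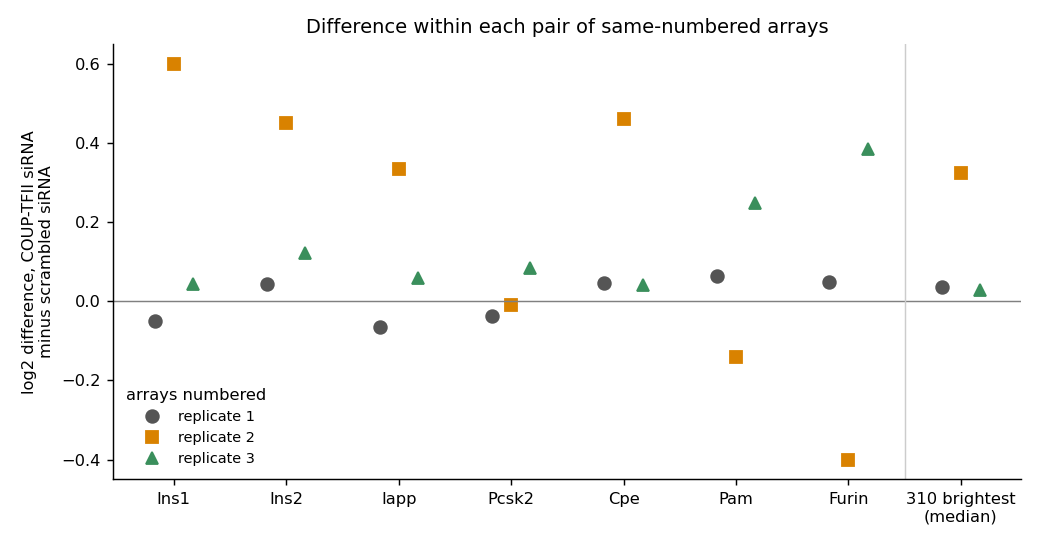
Difference in log2 signal (COUP-TFII siRNA minus scrambled siRNA) within replicate 1 (circles), 2 (squares) and 3 (triangles) for the 7 probe sets with at least the median signal, and the median of the 310 brightest probe sets for comparison. In replicate 2, Ins1, Ins2, Iapp and Cpe differ by 0.33 to 0.60 and the brightest probe sets by 0.32, while in replicates 1 and 3 these genes differ by at most 0.12 in either direction.

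For 3 of the 7 bright probe sets nearly all of the variation went with the replicate number. How many of all probe sets reached such a share is not given here, so this cannot be called particular to them. For Ins2, Pcsk2 and Pam 1367687_a_at the replicate number held 91.1%, 91.0% and 93.5% of the variation in log2 signal over the 6 arrays, and the siRNA 5.16%, 0.484% and 0.737%. The median over all probe sets with at least the median signal was 69.2% for the replicate number and 6.52% for the siRNA. The replicate number has 3 levels and the siRNA 2, so with no effect of either it would on average take the larger share. The shares therefore cannot be set against each other directly. For Ins1 the replicate number held 48.7% and the siRNA 16.6%, and for Furin 4.88% and 0.119%. For Cpe and Iapp the siRNA held more than the replicate number, 38.3% against 17.7% for Cpe and 24.7% against 18.0% for Iapp, with 44.0% and 57.3% left to neither. Their largest difference within a pair was in replicate 2, at 0.46 for Cpe and 0.33 for Iapp on the log2 scale. Without both replicate 2 arrays the log2FC was 0.044 for Cpe and -0.0027 for Iapp. Ins2 differed by 1.86 times between its highest and lowest array in COUP-TFII depleted cells and by 2.33 times in control cells, and Pam 1367687_a_at by 1.61 and 1.83 times. Both probe sets kept the same ranking of the 3 replicate numbers in COUP-TFII depleted and control cells, as did Pcsk2. So 3 of the 7 bright probe sets did, against 39.1% of all probe sets with at least the median signal.
The rankings differed between genes. Ins2 and Pcsk2 were highest on replicate 3, where Pam 1367687_a_at was lowest. Slc2a2, for the glucose transporter of rodent β-cells, read 5165, 5177 and 6780 in COUP-TFII depleted cells, against 4889, 3886 and 6030 in control cells, and was also highest on replicate 3. Gcg, the glucagon gene, whose precursor Pcsk2 cuts in α-cells, read 8056, 4789 and 817 in COUP-TFII depleted cells, against 6313, 3397 and 394 in control cells, so that its arrays differed by 9.86 and 16.0 times within the groups. Like Pam 1367687_a_at, Gcg was lowest on replicate 3 in both groups. Slc2a2 and Gcg were set beside the members after their values were seen, and what differed between the numbered cultures is not given in the sources used here.

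**Figure D4:**
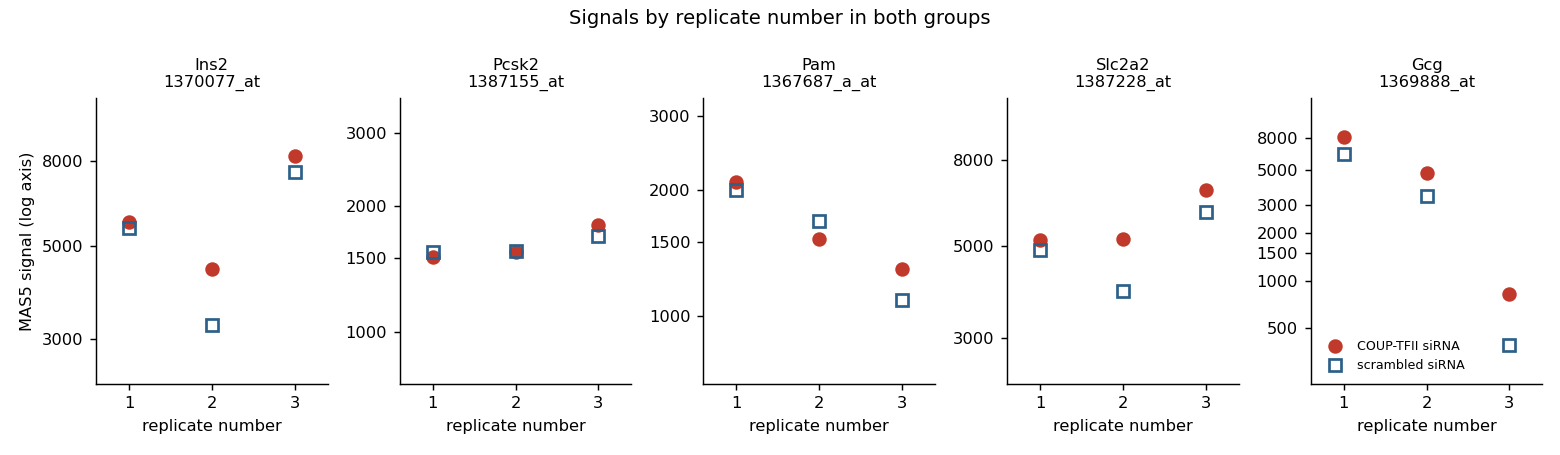
Signal (MAS5 intensity, log axes) by replicate number in COUP-TFII depleted cells (filled red circles) and control cells (open blue squares) for Ins2, Pcsk2, Pam, Slc2a2 and Gcg, where the axis of Gcg spans a wider range than the others. Replicate 3 has the highest Ins2, Pcsk2 and Slc2a2 and the lowest Pam and Gcg in both groups.

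The genes that serve the same pathway were described by 7 lists, in which 77 of 87 symbols had a named probe set and the brightest one stood for the gene. None of the 77 passed an adjusted p of 0.05 by limma, with or without the replicate block, and 0 of 77 had an unadjusted p up to 0.05 without it. Under the block, unadjusted p reached 0.05 for 6 genes that were higher and 5 that were lower, against 2.72% and 3.51% of all probe sets. By mean 47 were higher and 30 lower, with a median log2FC of 0.047, against 49.6% of all probe sets higher. Groups without overlap were found for 4 of the 77 on the higher side and 0 on the lower, against 3.24% and 3.45% of all probe sets. Of the 77 genes 8 were among the 310 brightest probe sets. Directions of the list genes after quantile normalization, and any shift of probe sets just below that brightness, are not given here. Without both replicate 2 arrays, a setting added after the values were seen, 47 were higher by mean, with a median of 0.030.
Before the hormones reach the convertases they are translocated, cut by signal peptidase and folded. Of 22 genes for translocation and signal peptide removal 19 were higher by mean, with a median of 0.078, and 16 without both replicate 2 arrays, with a median of 0.060. Among these 22, of which 3 were among the 310 brightest, Srp54a, for a subunit of the signal recognition particle, had the lowest unadjusted p of those at or above the median signal (log2FC 0.32, SE 0.22). With the block its unadjusted p was 0.0116 and its adjusted p 0.777 from limma. Ssr3, for a subunit of the translocon-associated complex, read 2100, 2410 and 1787 in COUP-TFII depleted cells, against 2453, 2771 and 2115 in control cells, a log2FC of -0.22 (SE 0.17). The block gave Ssr3 an unadjusted p of 0.0308 and an adjusted p of 0.797 from limma. The log2FC was 0.21 (SE 0.17) for Srp72, another subunit of the signal recognition particle, and 0.14 (SE 0.13) for Spcs2, a subunit of signal peptidase. Of 12 genes for disulfide formation and folding 10 were higher by mean, with a median of 0.15, and 10 without both replicate 2 arrays, with a median of 0.11. Again 3 were among the 310 brightest. Pdia4 and Pdia6 encode protein disulfide isomerases. Pdia4 read 773, 940 and 382 in COUP-TFII depleted cells, against 581, 810 and 230 in control cells, a log2FC of 0.45 (SE 0.47, unadjusted p = 0.362 and 0.0022 with the block, where its adjusted p was 0.678 from limma). For Pdia6 the log2FC was 0.33 (SE 0.30, unadjusted p = 0.308 and 0.0063 with the block, where its adjusted p was 0.739 from limma). Both varied by replicate number, with replicate 3 the lowest in both groups. The log2FC was -0.28 (SE 0.21) for Ero1a, for an oxidase of this list, and 0.18 (SE 0.21) for Canx, the chaperone calnexin.
Among 7 other convertases and their partners, 3 were higher and 4 lower by mean. Pcsk6, for the convertase PACE4, read 210, 150 and 121 in COUP-TFII depleted cells, against 309, 185 and 185 in control cells. It was lower in all 3 pairs, with overlapping groups and a log2FC of -0.49 (SE 0.27, unadjusted p = 0.105 and 0.00191 with the block, where its adjusted p was 0.667 from limma). Pcsk7 read 84.3, 86.4 and 108 in COUP-TFII depleted cells, against 74.3, 82.0 and 75.3 in control cells, without overlap, a log2FC of 0.26 (SE 0.22). The log2FC was -0.10 (SE 0.20) for Mbtps1, the site-1 protease, and -0.13 (SE 0.27) for Pcsk4, a convertase of germ cells. Scg5 encodes 7B2, the chaperone of prohormone convertase 2, and had a log2FC of 0.073 (SE 0.16). Pcsk1n encodes proSAAS, an inhibitor of prohormone convertase 1/3, and its value was -0.063 (SE 0.16). Neither differed beyond the spread of its arrays.
Of 9 other peptide-trimming enzymes 5 were higher and 4 lower by mean. Cpm, for carboxypeptidase M of the cell surface, read 48.5, 49.7 and 37.5 in COUP-TFII depleted cells, against 35.1, 30.9 and 27.8 in control cells, without overlap, a log2FC of 0.53 (SE 0.33). The others named were aminopeptidase B, a glutaminyl cyclase of the Golgi and cathepsin L, with a log2FC of -0.10 (SE 0.16) for Rnpep, -0.14 (SE 0.32) for Qpctl and 0.11 (SE 0.27) for Ctsl. Of 12 genes for granule zinc, acidification and the copper and electrons that amidation needs, 4 were higher and 8 lower by mean, with a median of -0.013, while without both replicate 2 arrays 7 were higher, with a median of 0.017. Among those at or above the median signal the lowest unadjusted p was 0.391, for the proton pump subunit Atp6v1b2. The log2FC was -0.15 (SE 0.17) for Atp6v1b2, -0.11 (SE 0.14) for Atp6v1a of the same pump, 0.16 (SE 0.21) for Slc31a1, a copper importer, and 0.08 (SE 0.17) for Slc30a5, a zinc transporter.
Of 10 insulin gene transcription factors 4 were higher and 6 lower by mean, with a median of -0.034, which was 0.011 without both replicate 2 arrays. Hnf4a read 255, 215 and 319 in COUP-TFII depleted cells, against 331, 313 and 339 in control cells, a log2FC of -0.34 (SE 0.17, unadjusted p = 0.0854 and 0.0135 with the block, where its adjusted p was 0.777 from limma). Nkx6-1 had a log2FC of -0.45 (SE 0.28, unadjusted p = 0.153 and 0.0331 with the block, where its adjusted p was 0.797 from limma). Pdx1, a main activator of insulin genes, had one of -0.16 (SE 0.14). Pdx1 read 391, 414 and 429 in COUP-TFII depleted cells, against 505, 472 and 408 in control cells, and it was higher in the COUP-TFII depleted array of replicate 3 alone. Nkx2-2 read 407, 385 and 423 in COUP-TFII depleted cells, against 381, 383 and 311 in control cells, without overlap, a log2FC of 0.18 (SE 0.14). Among 5 genes for insulin mRNA binding and insulin breakdown, Ide, the insulin-degrading enzyme, was lower in all 3 pairs, with a log2FC of -0.19 (SE 0.14), and Ptbp1, which binds insulin mRNA, had one of 0.029 (SE 0.13). For the RNA-binding proteins HuD and KSRP it was -0.16 (SE 0.29) for Elavl4 and -0.08 (SE 0.18) for Khsrp.

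The named probe sets whose log2 signals ran most like those of the members over the 6 arrays were sought among 12191 at or above the median signal. Pearson's r was 0.991 for Rpl7a and 0.987 for Got1 with Ins1, and 0.993 for Ercc6l2 and 0.992 for Manea with Ins2. It was 0.988 for Rpl41 and 0.985 for Mrpl48 with Iapp, and 0.995 for Traf6 and 0.993 for Vegfa with Pcsk2. These are the highest of very many values over 6 arrays that share replicate numbers and signal scale, and they describe those arrays only. Among the members themselves r was 0.931 between Ins1 and Cpe, 0.611 between Ins1 and Ins2, 0.723 between Ins2 and Pcsk2 and -0.803 between Pcsk2 and Pam 1367687_a_at. These were picked from all pairs of the measured genes, and others were near 0. For example, r was 0.0085 between Ins2 and Iapp and -0.013 between Ins1 and Pcsk2. Control replicate 2 was the lowest array for both Ins1 and Cpe.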

How the data were processed

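The authors ran MAS5 on 6 rat Affymetrix scans and deposited linear intensity values, background-corrected and scaled to reference probes whose names are not given in the sources used here. No detection calls come with them. Of 31099 probe sets, 57 were controls and were left out. Signals below 1 were raised to 1 before taking log2, and nothing further was normalized. The siRNA groups were set against each other by limma 3.58.1 under R 4.3.3, using lmFit and eBayes (trend on intensity). Tests were unpaired, as in the methods, and two-sided, with Benjamini-Hochberg adjustment over 31042 probe sets. The fit was tested on simulated data. Same-numbered arrays deviated together from their group means (r = 0.111, 0.231 and 0.163, against -0.146 to -0.0104 for other pairs). Deviations cancel within each group, so positive values for same-numbered pairs make the others negative on average, and the contrast adds no support. The numbers in the labels were taken to pair the arrays, and a second fit took that number as a block. That choice rests on the same data. The labels call the samples biological replicates, and their number limits the precision.
The platform annotation gave 1 symbol to 20826 probe sets, several to 436 and none to 9780. Symbols were updated through a RefSeq table of GRCr8. Promoter windows came from RefSeq (6 of 8 genes matched). Biopython 1.88 aligned the windows, and matplotlib 3.10.9 under Python 3.11.15 drew the figures.
The members and the lists were chosen with earlier results of these data known. The naming rule was every member probe set, Nr2f2, up to 4 genes of each pathway list by lowest unadjusted p at or above the median signal, any list gene called, and the 2 probe sets most like each of Ins1, Ins2, Iapp, Pcsk1 and Pcsk2. Scg5, Pcsk1n, Slc2a2, Gcg and the markers given with values were added after their values were seen. Alternatives tried were each array left out, the replicate block, quantile normalization, centring arrays on their median, log2(signal + 16), a pair of filters on low signals, a limma fit lacking the trend, and the t-test of the methods.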

Additional observations from a re-analysis of the deposited data

How the results depend on the processing

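No member probe set passed an adjusted p of 0.05 under any of the 16 alternatives, and no gene of the pathway lists did. Over all probe sets, 0 were called in the unpaired limma fit (717 at an unadjusted p up to 0.05), 5 with the replicate block (1933 unadjusted), 4 with the block and quantile normalization, a setting added after the data were seen, and 1 by the methods' t-test (472 higher and 502 lower unadjusted). The block changed no call of a member, whose lowest adjusted p was 0.811, for Ins2. Of the 141 member values under the alternatives, 119 kept their direction and 22 turned it. The t-test, the fit lacking the trend, the replicate block and the filters leave each log2FC unchanged, so those settings could turn none. The block with quantile normalization likewise repeats the values of quantile normalization. Quantile normalization turned Iapp (-0.082) and Pcsk2 (-0.0066), with and without the block, and log2(signal + 16) turned Pam 1370689_at (0.0065). Leaving out both replicate 2 arrays turned Ins1 (-0.0027), Iapp (-0.0027) and Pam 1370689_at (0.61). The cause was not tested. With 1 array left out the log2 fold changes ran from -0.011 to 0.36 for Ins1, -0.13 to 0.48 for Ins2, 0.023 to 0.18 for Iapp, -0.065 to 0.059 for Pcsk2, 0.077 to 0.26 for Cpe, -0.19 to 0.24 for Pam 1367687_a_at, -0.46 to 0.34 for Pam 1370502_at, -0.86 to 0.75 for Pam 1370689_at and -0.088 to 0.13 for Furin. The median over the members ran from -0.030 without COUP-TFII siRNA replicate 3 to 0.26 without scrambled siRNA replicate 1, and the number of probe sets called was 0 without each array. Leaving out 1 array in the unpaired fit leaves its replicate number in 1 group only. Pam 1370689_at has no value under either filter, and Pam 1370502_at none under the filter at the median signal. Signal near the background limits what Pam 1370502_at and Pam 1370689_at can show.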
